A study of Mus musculus with 2 samples.

Results

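The leukocyte integrins and their ligand gene *Icam1* were followed through single migratory dendritic cells (DCs) of mouse skin-draining lymph nodes. The 10 genes were listed by name and not by their values, and all 10 were found among the 18049 genes of the expression tables. They are *Itgax*, *Itgam*, *Itgal* and *Itgb2*, which code for the chains of the beta 2 integrins; *Itga4*, *Itgb1* and *Itgb7*; *Itgav* and *Itgb8*; and *Icam1*. The study used CITE-seq, in which the mRNA of a cell and DNA-barcoded antibodies on its surface are counted together. In this series 1 library came from unimmunized wild-type B6 mice (naive), and the other from B6 mice that had received ovalbumin (OVA) with the protease papain in both rear footpads 1 day earlier (papain; titled PapOVA d1). Live MHCIIhi CD11c+ B220- cells were sorted in both, so CD11c protein was itself a criterion of the sort.

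Each condition was 1 library, and the sources used here do not give the number of mice behind it. No replicate was there to measure the spread between mice, so no difference between the libraries was tested. The study's methods took popliteal nodes from the immunized mice and pooled skin-draining nodes from the naive mice, whereas the labels name popliteal nodes for both. The immunization, the node and the library cannot be told apart in any comparison of papain with naive. The authors placed each cell by its antibody values in 1 of 5 classes, namely Langerhans cells (LCs), type 1 conventional DCs (cDC1s) and 3 classes of type 2 conventional DCs (cDC2s), listed in the tables as CD301b-, CD301bint and CD301b+ and called CD301b-lo, -int and -hi here. In that order, the naive library held 440, 578, 658, 659 and 707 cells with a class, and the papain library held 881, 235, 1470, 1827 and 2893. The median depth per class lay between 10768 and 18290 unique molecular identifiers (UMIs) per cell, and 2 cell barcodes were shared between the libraries.

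Integrins are receptors of an alpha and a beta chain that bind matrix proteins or molecules on other cells, and they need both chains to reach the surface. The beta 2 integrins are found on leukocytes, where CD11a (*Itgal*), CD11b (*Itgam*) and CD11c (*Itgax*) each pair with CD18 (*Itgb2*). ICAM-1 (*Icam1*) is the ligand of the CD11a and CD11b pairs that DCs display to T cells. The alpha 4 chain pairs with beta 1 or beta 7 and binds VCAM-1, fibronectin or MAdCAM-1, beta 7 also pairs with the alpha E chain CD103 (*Itgae*), and the alpha v beta 8 integrin frees active TGF-beta from its latent complex. Migratory DCs are known to move through tissue with little need of integrins, to lose adhesion to the epidermis or dermis on leaving it, and to meet T cells in the node through ICAM-1 and CD11a with CD18.

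The class names were checked against marker genes. *Cd207* and *Epcam*, which mark LCs, stood at 45.7 and 102 counts per 1000000 UMIs (CPM) in naive LCs and at 58.9 and 156 CPM in papain LCs, above every other class of the same library. *Xcr1*, the chemokine receptor that marks cDC1s, stood at 16.9 CPM in naive and 9.44 CPM in papain cDC1s, above the other classes of each library. *Clec9a* and *Irf8* were also highest in cDC1s of both libraries. *Cd8a* was not in naive (19.8 CPM, against 67.5 in CD301b-lo cDC2s), nor *Itgae* in papain (0.651 CPM, against 1.20 in LCs). *Sirpa* and *Irf4*, which mark cDC2s, were higher in each cDC2 class than in LCs and cDC1s. *Mgl2*, the gene of CD301b, stood at 15.2, 59.1 and 56.1 CPM in naive CD301b-lo, -int and -hi cDC2s. In papain these held 0.831, 0.476 and 1.21 CPM. All 7 DC markers searched (MHC class II genes, *Flt3*, *Zbtb46*, *Ccr7*) were detected in each of the 10 groups, at a summed 7219 to 26528 CPM. RNA of other cells was present too: the 7 T cell markers summed to 204 CPM in naive cDC1s and to between 10.97 and 82.7 CPM in the other 9 groups, and the 6 listed monocyte and macrophage markers summed to between 585 and 729.5 CPM in the naive cDC2 classes against 12.04 to 117 CPM elsewhere. Those values are set beside the results they move with.

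Of the 12 barcoded antibodies, 3 recognise integrin chains, and their barcodes are shown because they decide which chain can be read as protein. They run 5' to 3', in lower case throughout:
CD11c: gttatggacgcttgc
CD103: ttcattagcccgctg
CD11b: tatatctttgccgca
CD24: tatatctttgccgca
The barcodes given for CD11b and CD24 are the same 15 bases. In each class of each library the counts listed for CD11b were between 1.15 and 1.21 times those listed for CD24, although CD24 is no integrin. CD11b protein could therefore not be read here, and *Itgax* with CD11c and *Itgae* with CD103 were the only pairs of gene and antibody.

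All values for genes below are sums of UMIs over the cells of a class, scaled to CPM, with exact Poisson 95% intervals that cover counting error only. A gene was called higher or lower where its ratio was at least 1.5-fold on the log2(CPM + 1) scale and the higher group held at least 10 CPM. That is a rule of size and not a test. Papain and naive differed in 2 ways across the 10 genes. *Itgax* and *Itgb2* were lower in papain in each class and *Itgal* and *Itgb7* in cDC1s and CD301b-lo cDC2s, whereas *Itgav* was higher in each class but cDC1s, and *Itga4*, *Itgb1* and *Icam1*, which had the highest CPM, differed little in most classes. By the rule, 3 genes were higher and 2 lower in LCs (7 of 10 passed the filter; 13.5% and 8.36% of all genes that passed were higher and lower), and 0 were higher and 5 lower in cDC1s (9 passed; 9.35% and 11.8%). In cDC2s, 1 was higher and 4 were lower in the CD301b-lo class (9 passed; 10.3% and 13.3%), 1 and 2 in the CD301b-int class (7 passed; 10% and 9.76%), and 1 and 2 in the CD301b-hi class (7 passed; 9.41% and 7.96%). The median log2 ratio over all 10 genes was 0.01 in LCs, -1.51 in cDC1s and -0.80, -0.75 and -0.45 in the CD301b-lo, -int and -hi cDC2s, beside 0.01 to 0.09 over all genes that passed.

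**Figure D1:**
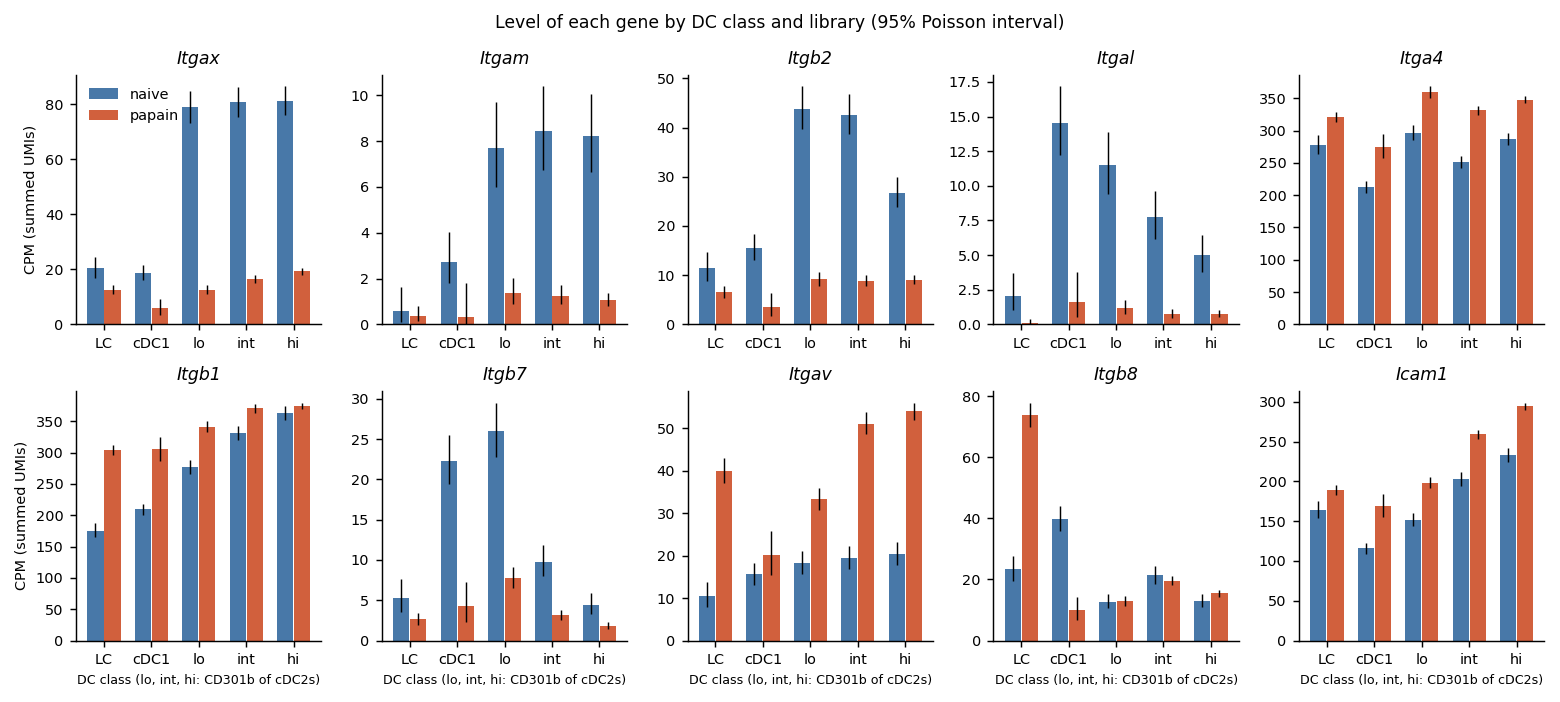
Bars give the level of each gene (CPM, y axis) in the 5 DC classes (x axis), naive in blue and papain in orange, with lines for exact Poisson 95% intervals and 1 library per condition. *Itgax* and *Itgb2* were lower in papain in each class and *Itgav* was higher in each class but cDC1s, while *Itgb8* was higher in LCs (23.3 and 73.9 CPM) and lower in cDC1s (39.9 and 10.1 CPM).

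*Itgax* codes for CD11c, the chain by which these cells were sorted. In the naive library it stood at 20.3 CPM in LCs (16.7 to 24.5), 18.6 in cDC1s (16 to 21.6), and 78.9, 80.8 and 81.1 in CD301b-lo, -int and -hi cDC2s. The 3 cDC2 classes overlapped in their intervals, as did LCs and cDC1s, and a gap lay between these sets. In the papain library *Itgax* stood at 12.6 CPM in LCs, 5.86 in cDC1s (3.47 to 9.26), and 12.6, 16.3 and 19.3 in the cDC2 classes. Each class was lower in papain than in naive, with log2 ratios of -0.64 in LCs (-0.96 to -0.32), -1.52 in cDC1s (-2.17 to -0.90), and -2.55, -2.24 and -2.02 in the cDC2 classes, where naive levels were the highest. The share of CD301b-lo cDC2s with an *Itgax* UMI was 35.1% in naive and 10.1% in papain, and 28.8% and 8.02% once cells were thinned to 8392 UMIs and the shallower ones (87 of 658 naive and 264 of 1470 papain cells) left out. In droplets with T cell UMIs and no antibody data, which passed the same sort and whose CD11c was not read, the shares before thinning were 4.22% in naive and 1.66% in papain, at median depths of 7626 and 6980 UMIs.

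*Itgb2*, the gene of the CD18 chain that the beta 2 alpha chains share, was likewise higher in naive cDC2s than in naive LCs and cDC1s. In the naive library it stood at 11.5 CPM in LCs, 15.6 in cDC1s, and 43.9, 42.7 and 26.7 in CD301b-lo, -int and -hi cDC2s. In the papain library it stood at 6.54, 3.58, 9.20, 8.85 and 9.08 CPM in the same classes, and neighbours in the order of these levels overlapped in their intervals. The log2 ratios of papain over naive were -0.73 in LCs (-1.14 to -0.30), -1.86 in cDC1s (-2.61 to -1.12), -2.14 and -2.15 in CD301b-lo and CD301b-int cDC2s and -1.46 in CD301b-hi cDC2s (-1.66 to -1.26). In LCs the calls of *Itgax* and *Itgb2* both ended without cells holding a UMI of a T or B cell marker, at log2 ratios of -0.39 (-0.79 to 0.02) and -0.27 (-0.79 to 0.27). *Itgam*, which codes for CD11b of the complement receptor Mac-1, was under 10 CPM in every group and so could not be called. It stood at 7.69, 8.42 and 8.23 CPM in naive cDC2s and at 1.38, 1.26 and 1.05 CPM in papain cDC2s, in the order CD301b-lo, -int and -hi. In naive cDC1s its 26 UMIs gave 2.74 CPM, of which 1 cell held 69.2%, and 1 to 7 UMIs were counted in the other LC and cDC1 groups. Over the 10 groups *Itgax* and *Itgb2* had a Pearson r of 0.96 on the log2(CPM + 1) scale, *Itgam* and *Itgb2* 0.94, and *Itgax* and *Itgam* 0.93. These points share 2 libraries and their cells, so the correlations describe the groups and were not tested.

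The promoters of *Itgax*, *Itgam* and *Icam1* are shown as the windows before the genes of the CD11c and CD11b chains, and before the gene of their ligand, whose level over the 10 groups had an r of 0.06 with *Itgax* and -0.06 with *Itgam*. *Itgam* (chr7:128062640-128118491, + strand, GRCm38.p6) and *Itgax* (chr7:128129526-128150657, + strand) are neighbours on chromosome 7, with 11034 bases between them, and *Icam1* lies at chr9:21015940-21028814 on the + strand. The 250 bases before the start used by the RefSeq promoter table are written 5' to 3', at chr7:128129300-128129549 for *Itgax*, chr7:128062390-128062639 for *Itgam* and chr9:21015690-21015939 for *Icam1*. For *Itgax* the start of that table lies 24 bases inside the gene span given above, and distances are counted from the table's start. Capitals mark an AP-1-type motif (TGANTCA) in *Itgax*, a purine box of the PU.1 type (GAGGAA) in *Itgam*, and an NF-kB-type motif (GGANNTTCC) in *Icam1*:
Itgax: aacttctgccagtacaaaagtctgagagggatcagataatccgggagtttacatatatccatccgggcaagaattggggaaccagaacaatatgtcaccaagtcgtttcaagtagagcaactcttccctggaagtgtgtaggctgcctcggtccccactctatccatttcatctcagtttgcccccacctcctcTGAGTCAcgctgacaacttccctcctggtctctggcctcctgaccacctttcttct
Itgam: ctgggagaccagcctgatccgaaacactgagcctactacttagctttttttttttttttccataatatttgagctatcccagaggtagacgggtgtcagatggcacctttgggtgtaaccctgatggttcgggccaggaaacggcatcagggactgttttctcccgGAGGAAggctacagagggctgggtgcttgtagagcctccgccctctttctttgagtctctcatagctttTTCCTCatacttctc
Icam1: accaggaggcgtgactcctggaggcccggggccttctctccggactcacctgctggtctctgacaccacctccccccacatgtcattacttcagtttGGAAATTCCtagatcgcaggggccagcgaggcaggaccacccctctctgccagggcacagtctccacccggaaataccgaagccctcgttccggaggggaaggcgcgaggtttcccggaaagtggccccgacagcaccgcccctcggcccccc
The motifs were searched on both strands in the 8 of 10 genes whose windows were in the table. GAGGAA was present in 3 of them (*Itgam*, *Itgb1* and *Itgav*) and in 23.3% of 32851 windows of all genes. TGANTCA was present in 1 (*Itgax*) and in 6.75% of all windows, and GGANNTTCC in 1 (*Icam1*) and in 3.59%. The TGANTCA match began 56 bases before the *Itgax* start of the table, the *Icam1* match began 153 bases before its start, and the *Itgam* matches began 84 and 15 bases before its start. The matches are letters in a window, and binding was not measured.

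The naive cDC2s with most beta 2 integrin mRNA lay in 1 of the clusters the authors had made from cDC2 mRNA. These clusters were built on the genes described here, so their levels are a description, and their numbers were used only within a library. Cluster 5 of the naive library held 246 of 2024 naive cDC2s, or 12.2%, and 1590 of the 2489 *Itgax* UMIs, or 63.9%. It held 78.2% of the *Itgam* UMIs, 69.9% of *Itgb2*, 59.3% of *Itgal* and 55.6% of *Itgb7*, but 9.46% of *Itgb1* and 6.29% of *Icam1*. *Itgax* stood at 325 CPM in this cluster (310 to 342) and between 11.2 and 81.8 CPM in the other 6 naive clusters. *Itgb2* stood at 165 CPM there and between 3.86 and 70.5 CPM in the others, whereas *Icam1* was at its lowest there, at 79.2 CPM. In the papain library the highest of 9 clusters held 30.5 CPM of *Itgax* and 17.02 CPM of *Itgb2*.

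Cluster 5 also differed in genes outside the integrins. *Lyz2*, the lysozyme gene of macrophages and monocytes, stood at 3763 CPM there and between 9.96 and 147 CPM in the other naive clusters. *Csf1r*, the receptor of macrophage colony-stimulating factor, stood at 137 CPM there, and *Mgl2*, the gene of CD301b, at 276 CPM. *Ccr7*, the chemokine receptor that takes migratory DCs to the node, stood at 1389 CPM against 2754 to 5029 CPM in the others. The monocyte and macrophage list summed to 4017 CPM against 14.9 to 184 CPM in the other naive clusters and 11.2 to 80.2 CPM in the papain clusters, with all 6 of its listed genes detected. The DC list was highest in cluster 5 too, at 53776 CPM against 10559 to 22067 CPM in the other naive clusters. So was the cDC2 list, at 826 against 78.2 to 367 CPM. *Flt3* stood at 143 CPM, within the 105 to 219 CPM of the others, and *Zbtb46* at 58.3 CPM, under their 61.7 to 106 CPM. Which cell type the cluster held was not tested. The CD64 antibody, which marks macrophages and monocyte-derived cells, was at a median of 0.041 (natural-log scale) in cluster 5, within the 0.034 to 0.057 of the other naive clusters. On that scale the CD103 antibody of naive CD301b-hi cDC2s had a median of 0.135 at a median of 3 counts. The CD64 medians thus lay near the floor of the scale and cannot tell the clusters apart. Cluster 5 held 21.7% of naive CD301b-lo cDC2s, 9.71% of CD301b-int and 5.52% of CD301b-hi cDC2s.

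**Figure D2:**
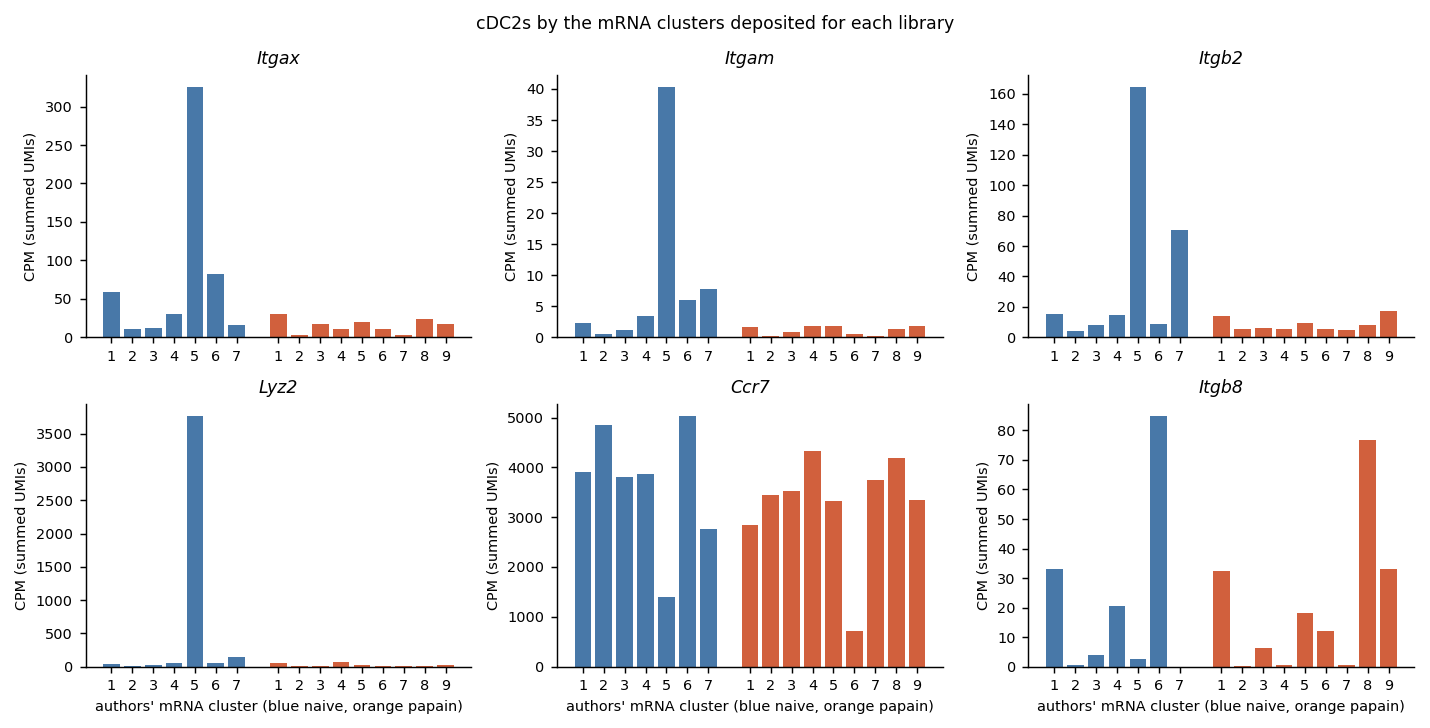
Bars give the level (CPM, y axis) of 6 genes in cDC2s by the mRNA clusters of each library (x axis), naive clusters 1 to 7 in blue and papain clusters 1 to 9 in orange, with no error drawn. Naive cluster 5 stood highest for *Itgax* (325 CPM), *Itgam* (40.3 CPM), *Itgb2* (165 CPM) and *Lyz2* (3763 CPM), and *Itgb8* was highest in naive cluster 6 and papain cluster 8.

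The ratios of papain over naive were computed again without these cells, an alternative chosen after seeing the data. Without cluster 5 the naive *Itgax* level was 27.4, 25.9 and 46.2 CPM in CD301b-lo, -int and -hi cDC2s, and the log2 ratios were -1.06 (-1.33 to -0.78), -0.63 (-0.85 to -0.41) and -1.22 (-1.37 to -1.06). *Itgax* thus stayed lower in papain in each class, by less than with all cells. A smaller difference followed from the choice, since this setting left out the naive cells with most *Itgax* and no papain cells. *Itgb2* without cluster 5 stood at 16.3, 12.6 and 11.98 CPM in naive cDC2s, with log2 ratios of -0.76, -0.47 and -0.37, of which only that in CD301b-lo cDC2s passed 1.5-fold. *Itgam* had log2 ratios of -0.80, -0.31 and -0.40 without cluster 5. Cells with at least 5 *Lyz2* UMIs were left out of both libraries as another such alternative, and *Itgax* then had log2 ratios of -0.42 in LCs, -1.02 in cDC1s and -1.87, -0.96 and -1.19 in the cDC2 classes.

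*Itgal* codes for CD11a, which with CD18 forms LFA-1, the integrin by which T cells bind ICAM-1. In the naive library it stood at 2.07 CPM in LCs, 14.5 in cDC1s (12.2 to 17.2), and 11.5, 7.74 and 4.99 in CD301b-lo, -int and -hi cDC2s, and in the papain library at 0.109, 1.63, 1.16, 0.714 and 0.732 CPM. The cDC1s held the most in both libraries, though in each library they overlapped with the CD301b-lo cDC2s. *Itgal* was called lower in papain in cDC1s (log2 ratio -2.56, -3.37 to -1.66) and CD301b-lo cDC2s (-2.53, -2.93 to -2.08). *Itgb7*, the partner of the alpha 4 and alpha E chains, stood at 5.27, 22.3, 26.0, 9.77 and 4.47 CPM in the naive classes and at 2.62, 4.23, 7.76, 3.13 and 1.84 CPM in the papain classes. It too was called lower in papain in cDC1s (-2.16, -2.87 to -1.47) and CD301b-lo cDC2s (-1.63, -1.91 to -1.34).

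T and B cell mRNA moved with both genes. When cells with a UMI of any T or B cell marker were left out (159 of 578 naive and 60 of 235 papain cDC1s), naive cDC1s held 1.07 CPM of *Itgal* instead of 14.5, and 4.57 CPM of *Itgb7* instead of 22.3. The log2 ratios in cDC1s were then -0.12 and -0.43, and neither gene was called. *Itgb2* in naive cDC1s was 5.18 CPM instead of 15.6, with a log2 ratio of -0.93 and under the 10 CPM of the filter, whereas *Itgax* in cDC1s stayed lower (15.8 and 3.14 CPM, log2 ratio -2.02). In the CD301b-lo cDC2s the naive cluster 7 held 34 of 658 cells; over all cDC2s it had 50 cells, 964 CPM of T cell markers, 389 CPM of NK cell markers, 83.7 CPM of *Itgal* and 106 CPM of *Itgb7*. Without clusters 5 and 7, the CD301b-lo class held 0.487 CPM of *Itgal* and 6.65 CPM of *Itgb7* in naive, the log2 ratios turned to 0.54 (-0.25 to 1.06) and 0.19 (-0.26 to 0.66), and *Itgb2* had a ratio of -0.18 (-0.57 to 0.22). Without cells holding a T or B cell UMI, *Itgal* in this class kept a log2 ratio of -2.28 (-2.68 to -1.71) at 5.77 CPM in naive and 0.391 in papain, under the 10 CPM of the filter, while *Itgb7* had -0.46 (-0.88 to -0.03). The calls of *Itgal* and *Itgb7* thus ended without cells with T or B cell UMIs in cDC1s, and without clusters 5 and 7 in CD301b-lo cDC2s. Whether a droplet held mRNA of more than 1 cell was not tested.

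**Figure D3:**
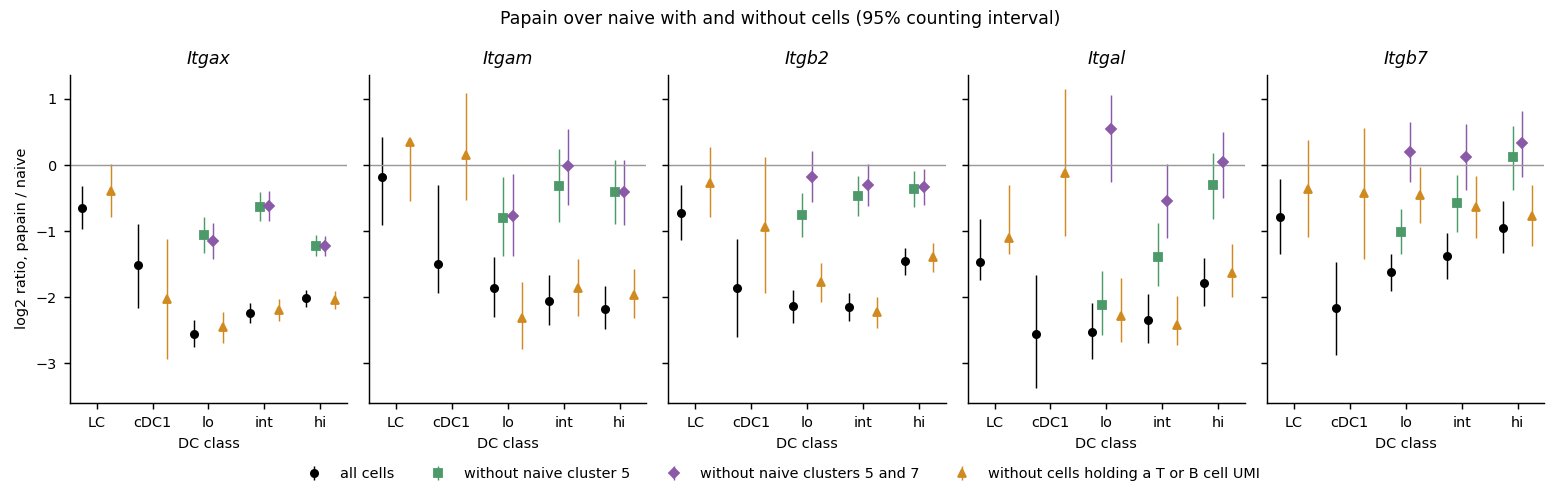
Points give the log2(CPM + 1) ratio of papain over naive (y axis) by class (x axis) for 5 genes, with 95% counting intervals, for all cells (black), without naive cluster 5 (green), without naive clusters 5 and 7 (purple) and without cells holding a T or B cell UMI (orange triangles); the cluster settings apply to cDC2s. *Itgax* stayed below 0 in the cDC2 classes under each setting, whereas *Itgal* and *Itgb7* reached 0.54 and 0.19 in CD301b-lo cDC2s without clusters 5 and 7.

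*Itga4*, the alpha chain of VLA-4 and of the alpha 4 beta 7 integrin, was detected in 79.2% to 94.9% of the cells of each class. It stood at 278, 212, 297, 251 and 287 CPM in naive LCs, cDC1s and CD301b-lo, -int and -hi cDC2s, and at 321, 275, 360, 331 and 348 CPM in papain. All 5 classes were higher in papain, with log2 ratios between 0.20 and 0.40, and none passed 1.5-fold. *Itgb1*, the beta chain of VLA-4 and of many matrix receptors, stood at 176, 209, 277, 331 and 363 CPM in the naive classes and at 304, 305, 341, 371 and 375 CPM in the papain classes. The naive classes spread in that order without overlap, while papain LCs and cDC1s overlapped, as did papain CD301b-int and CD301b-hi cDC2s. LCs differed most between the libraries, with a log2 ratio of 0.79 (0.69 to 0.89), followed by cDC1s at 0.54 (0.43 to 0.65), and CD301b-hi cDC2s had 0.04 (-0.00 to 0.09).

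The CD103 chain was read as mRNA and as protein, although *Itgae* was not among the 10 genes. *Itgae* stood at 8.11 CPM in naive cDC1s (6.40 to 10.1) and at 0.651 CPM in papain cDC1s from 2 UMIs, and between 0.188 and 1.20 CPM in the other classes. The CD103 antibody had a median of 1.30 in naive and 0.838 in papain cDC1s on the natural-log scale, and 0.211 or less in every other class. Both readouts were thus higher in cDC1s than elsewhere in naive, and the antibody also in papain. In naive cDC1s thinned to 8392 UMIs, 3.59% of cells held UMIs of both *Itgae* and *Itgb7*, while the product of the single shares was 0.584%. T cells also carry this pair, and T cell markers were highest in the same class.

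*Itgav* and *Itgb8* code for the chains of the alpha v beta 8 integrin. *Itgav* stood at 10.5 CPM in naive LCs (7.96 to 13.7), 15.6 in cDC1s, and 18.2, 19.4 and 20.4 in CD301b-lo, -int and -hi cDC2s, each overlapping the next. In papain it stood at 39.9 CPM in LCs (37.1 to 42.9), 20.2 in cDC1s (15.5 to 25.9), and 33.2, 51.1 and 53.9 in the cDC2 classes. Only the cDC1s overlapped between the libraries. The log2 ratios were 1.83 in LCs (1.46 to 2.21), 0.35 in cDC1s (-0.07 to 0.77), and 0.83, 1.36 and 1.36 in the cDC2 classes, so 4 of 5 classes passed 1.5-fold. The share of LCs with an *Itgav* UMI was 10.2% in naive and 41.0% in papain, and 7.32% and 23.8% at equal depth, where 127 of 440 naive and 110 of 881 papain LCs were too shallow and left out.

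*Itgb8* differed between the libraries in LCs and cDC1s, in opposite directions. It stood at 23.3 CPM in naive LCs (19.4 to 27.8) and 73.9 in papain LCs (70.0 to 77.9), a log2 ratio of 1.62 (1.37 to 1.89). In cDC1s it stood at 39.9 CPM in naive (36 to 44.1) and 10.1 in papain (6.86 to 14.3), a log2 ratio of -1.88 (-2.40 to -1.39). In CD301b-lo, -int and -hi cDC2s it was 12.8, 21.4 and 13.0 CPM in naive and 13.0, 19.6 and 15.4 CPM in papain, with log2 ratios between -0.12 and 0.23 whose intervals all held 0. The class with the highest level was thus cDC1s in naive and LCs in papain. With 1 library each, the difference between LCs and cDC1s in their ratios was not tested. The share of cells with an *Itgb8* UMI was 15.2% in naive and 43.5% in papain LCs (11.6% and 31.4% at equal depth), and 29.8% and 8.51% in cDC1s (21.5% and 5.87%, without 47 of 578 and 28 of 235 cells that were too shallow). Without cells holding a T or B cell UMI the log2 ratios were 1.5 and -1.77. Droplets with T cell UMIs and no antibody data, which may hold T cells that use this gene, had an *Itgb8* UMI in 1.69% (naive, 237 droplets, median 7626 UMIs) and 0.830% (papain, 241 droplets, median 6980 UMIs). Both chains were detected in the same cell in 1.55% of naive and 9.0% of papain LCs at equal depth, beside products of the single shares of 0.850% and 7.48%.

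Within papain cDC2s, *Itgb8* had the widest range between mRNA clusters of the 9 genes that were above 0 in each cluster. It stood at 0.259 CPM in cluster 2 (1294 cells) and 76.9 CPM in cluster 8 (316 cells), which is 297 times as much. The level in cluster 2 rests on 5 UMIs (0.0842 to 0.605 CPM), so this ratio is imprecise. In naive *Itgb8* was at 84.8 CPM in cluster 6 (55 cells), 33.0 in cluster 1 and 0.482 in cluster 2, and no UMI was counted in cluster 7, whose counting interval reached 4.06 CPM. *Itgav* had a smaller range, between 21.4 CPM (cluster 4) and 65.7 CPM (cluster 8) in papain. Papain cluster 8 held the most of both chains among papain cDC2s, though for *Itgav* its interval overlapped that of cluster 1 (63.9 CPM).

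**Figure D4:**
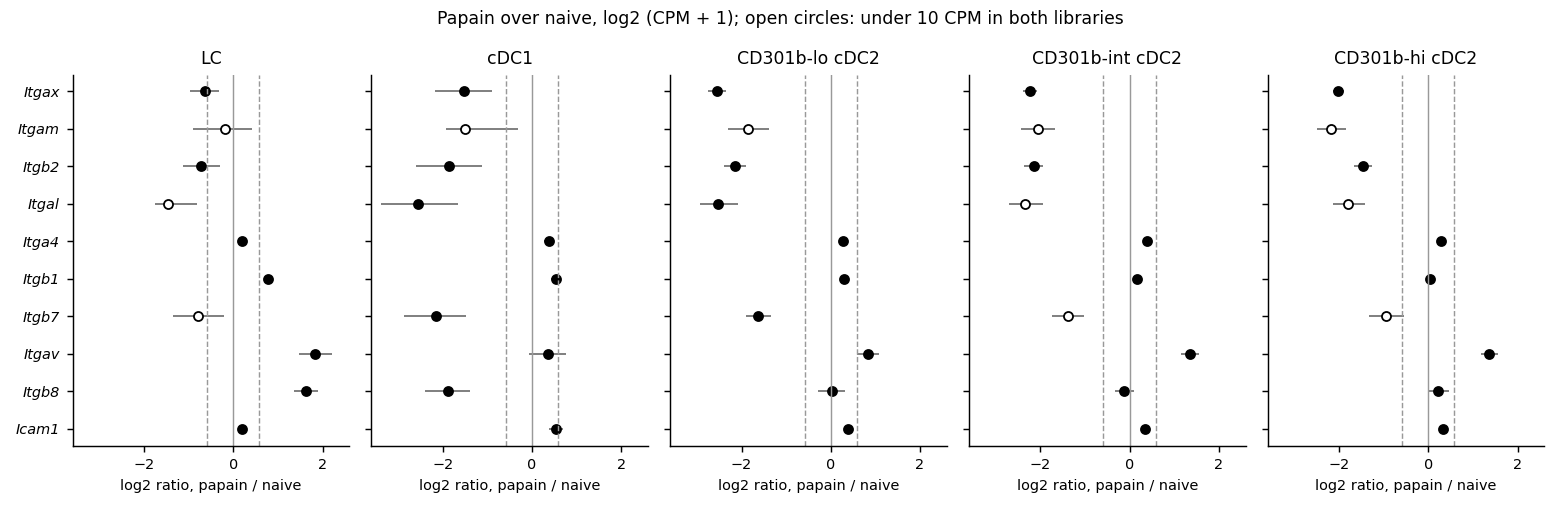
Points give the log2(CPM + 1) ratio of papain over naive (x axis) for the 10 genes (y axis) in each class, with 95% counting intervals, dashed lines at 1.5-fold, and open circles where both libraries were under 10 CPM. *Itgav* lay right of the dashed line in 4 of 5 classes, *Itgax* and *Itgb2* lay left of it in all 5, and *Itgb8* lay at 1.62 in LCs and -1.88 in cDC1s.

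*Icam1*, the ligand on the DC for LFA-1 of T cells, stood at 164, 116, 152, 203 and 232 CPM in naive LCs, cDC1s and CD301b-lo, -int and -hi cDC2s. In papain the levels were 189, 169, 198, 259 and 294 CPM. In both libraries CD301b-hi cDC2s were highest, CD301b-int cDC2s next and cDC1s lowest. LCs stood above CD301b-lo cDC2s in naive and below them in papain, with overlapping intervals in each, and papain LCs also overlapped with papain cDC1s. All 5 classes were higher in papain, with log2 ratios between 0.20 (LCs, 0.10 to 0.31) and 0.54 (cDC1s, 0.39 to 0.69), and none passed 1.5-fold. The share of cells with an *Icam1* UMI was 62.9% to 78.9% in naive and 71.1% to 88.1% in papain. In the papain cDC2s, cluster 3 held the most *Icam1* (376 CPM) and cluster 7 the least (129 CPM).

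Within the naive library LCs held less of 5 genes than cDC2s and more of none (8 of 10 passed; background 10.7% higher and 13.1% lower). These were *Itgax* (20.3 and 80.3 CPM, log2 ratio -1.93), *Itgb2* (-1.61), *Itgb7* (-1.12), *Itgb1* (-0.89) and *Itgav* (10.5 and 19.4 CPM, -0.82). Without clusters 5 and 7, 3 of these were called, and *Itgb2* turned to 0.03 and *Itgb7* to 0.61, while without cells holding a T or B cell UMI *Itgb7* had -0.50 and was not called. In papain 1 gene was higher and 0 were lower (6 passed; 6.15% and 5.66%): *Itgb8* at 73.9 CPM in LCs and 16.2 in cDC2s, a log2 ratio of 2.12 (2.02 to 2.22). *Itgax* stood at -0.41, *Itgb1* at -0.27 and *Itgav* at -0.30 in papain, nearer to 0 than in naive, whereas *Icam1* went from -0.27 in naive to -0.49 in papain. These differences between the libraries were not tested.

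Naive cDC1s held more *Itgb8* (39.9 and 15.8 CPM, log2 ratio 1.29), *Itgal* (0.81) and *Itgb7* (0.77) than naive cDC2s, and less *Itgax* (-2.05), *Itgb2* (-1.20), *Icam1* (-0.77) and *Itgb1* (-0.64). That made 3 higher and 4 lower (9 passed; 11.2% and 16.3%). The higher *Itgal* and *Itgb7* turned to -1.52 and -0.15 without cells holding a T or B cell UMI, and *Itgb2* turned to 0.21 without cluster 5. In papain 0 genes were higher and 4 lower (6 passed; 9.05% and 15.6%), namely *Itgax* (5.86 and 17.2 CPM, -1.41), *Itgav* (20.2 and 49.3 CPM, -1.25), *Icam1* (-0.65) and *Itgb8* (-0.64). *Itgax* and *Icam1* were therefore lower in cDC1s than in cDC2s in both libraries, and *Itgb8* was on opposite sides.

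CD301b-hi and CD301b-lo cDC2s differed in 4 genes in naive (9 passed; 4.66% and 8.59%). *Icam1* was higher in the CD301b-hi class (232 and 152 CPM, log2 ratio 0.61, 0.52 to 0.71), and *Itgb7* (4.47 and 26.0 CPM, -2.30), *Itgal* (-1.06) and *Itgb2* (-0.70) were lower. Without cells holding a T or B cell UMI none of the 4 was called, *Itgb7* at -1.44 and *Itgal* at -0.59 because both classes were then under 10 CPM (*Itgb7* 2.91 and 9.62 CPM, *Itgal* 3.51 and 5.77 CPM), and *Itgb2* and *Icam1* at -0.45 and 0.42. Without clusters 5 and 7, *Itgb2* turned to 0.14 and *Itgal* to 0.17, and *Itgb7* had -1.77. In papain 1 gene was higher and 0 lower (6 passed; 3.75% and 3.6%), namely *Itgav* at 53.9 and 33.2 CPM (0.68, 0.56 to 0.81), and *Icam1* had a ratio of 0.57 (0.51 to 0.62), just under 1.5-fold. *Itgax* had 0.57 as well in papain (19.3 and 12.6 CPM) and 0.04 in naive.

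On the deposited relative scale, the CD11c antibody of the same cells did not follow *Itgax* between the libraries. Its median on the natural-log scale was 1.56 in naive and 1.90 in papain LCs, and 1.76 and 2.07 in cDC1s. In CD301b-lo cDC2s it was 2.35 and 2.26, in CD301b-int cDC2s 1.99 and 2.08, and in CD301b-hi cDC2s 2.14 and 2.18. By its median on this scale, CD11c was thus higher in papain in 4 of 5 classes and lower in CD301b-lo cDC2s, while *Itgax* was lower in all 5. Without cluster 5 the naive median in CD301b-lo cDC2s was 2.08, under the 2.26 of papain. By the mean over cells, papain minus naive was -0.00511 in CD301b-int and -0.0543 in CD301b-hi cDC2s, so CD11c was higher in papain in only 2 classes by that measure. As a share of all antibody counts of a cell, the median went from 1.73% in naive to 4.82% in papain LCs, from 3.38% to 8.35% in cDC1s, and from 4.05%, 2.49% and 3.16% to 4.42%, 4.34% and 4.76% in the 3 cDC2 classes. The median count of CD11c antibody per cell was higher in papain only in LCs (154.5 in naive and 364 in papain). It was lower in cDC1s (348.5 and 311) and in CD301b-lo, -int and -hi cDC2s (237 and 105, 186 and 139, 248 and 198). The median total of antibody counts per cell was lower in papain in each class, for example 6212.5 and 2473 in CD301b-lo cDC2s. The sort kept cells by this antibody, and the antibody values were among those that set the classes. The antibody value is relative to the 12 antibodies of its own cell, so a lower count of any other antibody raises it.

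Between cells of a cDC2 class, cells with more CD11c antibody did hold more *Itgax*. Ranked into 5 equal parts by CD11c, naive CD301b-hi cDC2s held 8.52, 14.7, 50.2, 67.5 and 220 CPM of *Itgax* from the lowest part to the highest, and papain CD301b-hi cDC2s held 2.81, 12.4, 23.1, 21.4 and 31.5 CPM. The top part of naive CD301b-lo and CD301b-int cDC2s held 215 and 231 CPM. *Lyz2* stood at between 1549 and 2383 CPM in the top parts of the 3 naive cDC2 classes, and cluster 5 had the highest CD11c median of all naive clusters, 3.65 against 1.36 to 2.87. Without cluster 5 the top parts held 57.9, 42.3 and 97.7 CPM of *Itgax* in CD301b-lo, -int and -hi cDC2s. Each was above the 31.5 CPM of papain CD301b-hi cDC2s (28.3 to 35.0), the highest of any papain part. The interval of the CD301b-int part (33.9 to 52.2 CPM) overlapped that one, but not that of the top papain CD301b-int part (24.0 to 32.5). Over cells, the Pearson r of the antibody and *Itgax* was 0.49 to 0.53 in the naive cDC2 classes (658 to 707 cells) and 0.18 to 0.27 in the papain cDC2 classes (1470 to 2893 cells). In LCs and cDC1s it was 0.10 to 0.20, which is too weak to read in sparse counts. Cells of 1 library share their depth and staining, and the correlations were not tested.

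**Figure D5:**
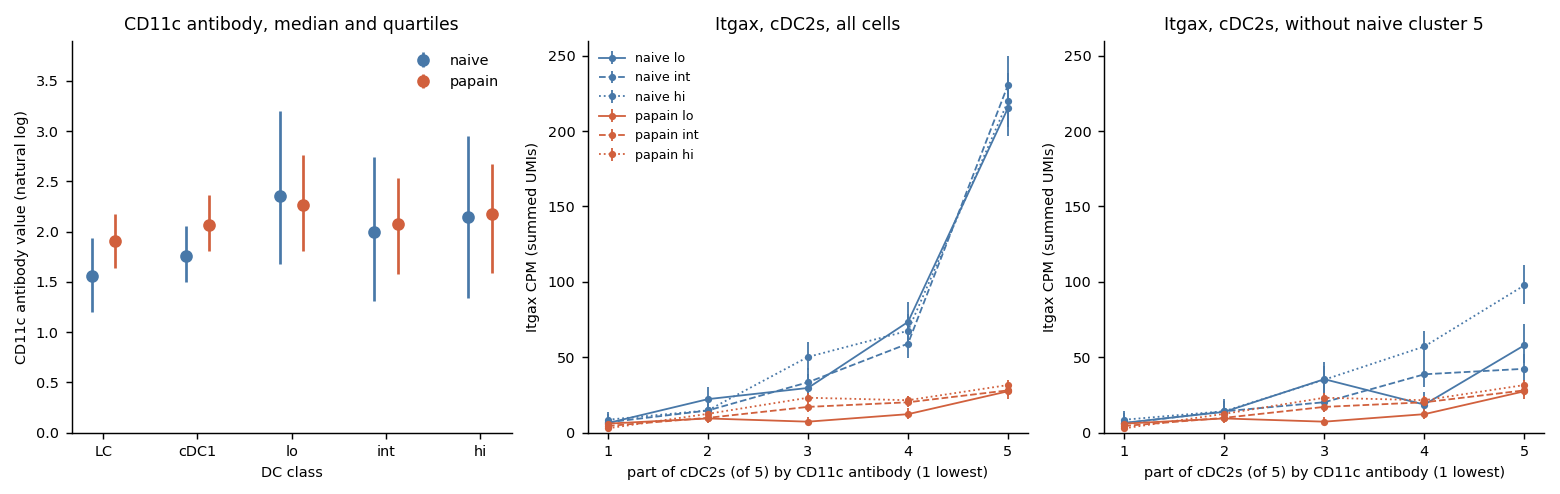
The left panel gives the median and quartiles over cells of the CD11c antibody value (natural log, y axis) by class, naive in blue and papain in orange, and the other panels give *Itgax* (CPM with 95% Poisson intervals, y axis) over 5 equal parts of the cDC2s of each class ranked by CD11c (x axis), for all cells and without naive cluster 5. The top naive parts held 215 to 231 CPM with all cells and 42.3 to 97.7 CPM without cluster 5, and no papain part was above 31.5 CPM.

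Other genes of integrin biology were counted from lists fixed by function. Of the 17 other integrin subunits searched, 11 were in the tables, and 2 or 3 passed the filter in each class. For these lists too, the shares of all genes higher and lower in papain were 13.5% and 8.36% in LCs, 9.35% and 11.8% in cDC1s, and 10.3% and 13.3%, 10% and 9.76%, and 9.41% and 7.96% in CD301b-lo, -int and -hi cDC2s. In LCs *Itga5*, the alpha chain of the fibronectin receptor, was higher in papain (7.15 and 16.2 CPM in naive and papain) and *Itgb5*, a partner of the alpha v chain, was lower (16.2 and 7.14 CPM). In cDC1s *Itga1*, the alpha chain of a collagen receptor, was higher (16.6 and 29.3 CPM) and *Itgb5* lower (14.2 and 8.79 CPM). In the 3 cDC2 classes 0 of 3 subunits were called.

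Among integrin ligands and TGF-beta partners, 17 of 22 were in the tables. In LCs 3 of 6 were higher in papain and 0 lower (13.5% and 8.36% of all genes), among them *F11r*, the gene of JAM-A, which binds LFA-1 (55.9 and 108 CPM), and *Tgfb1*, whose latent product is the substrate of alpha v beta 8 (9.60 and 20.4 CPM). In cDC1s 0 of 7 were higher and 3 lower (9.35% and 11.8% of all genes), with *Tgfb1* at 30.1 and 17.9 CPM and the T cell marker *Thy1* at 30.2 and 1.63 CPM. In CD301b-lo, -int and -hi cDC2s 1 was higher and 3, 4 and 2 were lower, of 6 in each. *F11r* was higher in all 3, at log2 ratios of 1.14, 0.69 and 0.71, and *Tgfb1* and *Nrros*, which anchors latent TGF-beta on myeloid cells, were lower in all 3, with *Tgfb1* at -1.14, -1.09 and -0.86. *Tgfb1* and *Itgb8* were thus both higher in papain LCs and both lower in papain cDC1s. In the cDC2 classes *Tgfb1* was lower, while *Itgb8* was not called. The T cell markers summed to 204 CPM in naive and 31.9 CPM in papain cDC1s. *Tgfb1* was not computed without cells holding a T or B cell UMI, so whether its ratio moved with T cell mRNA was not tested.

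Genes that link integrins to actin or activate them were searched as another list. In LCs 6 of 21 that passed were higher in papain and 1 lower, beside 13.5% and 8.36% of all genes. *Flna*, the actin cross-linker filamin A, stood at 60.6 CPM in naive and 183 in papain LCs (log2 ratio 1.58, 1.42 to 1.75), and *Tln1*, the talin that switches integrins on, at 69.2 and 128 CPM (0.88, 0.72 to 1.04). *Tln2*, the second talin, was at 12.2 CPM in papain LCs and 0.041 CPM in papain cDC2s. In cDC1s 3 of 21 were higher (*Flna*, *Rap1b* and *Myo1g*) and 2 lower (*Rassf5* and *Skap1*, both adaptors of LFA-1 signalling in T cells). In the CD301b-lo, -int and -hi cDC2s 1 of 23, 0 of 21 and 0 of 21 were higher and 5, 1 and 2 lower, with *Fyb*, an adaptor between immune receptors and integrins, lower in each. The 1 and 2 lower in the CD301b-int and CD301b-hi classes lay near the 9.76% and 7.96% of all genes.

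Of the 12 TGF-beta response genes, 3 of 9 that passed were lower in papain LCs and 0 higher, beside 8.36% and 13.5% of all genes. They were *Tgfbr1*, a receptor chain (24.5 and 13.5 CPM in naive and papain), *Id2* (2997 and 1735 CPM) and *Runx3* (149 and 98.6 CPM), a pair of transcription factors that LCs need to develop. In cDC1s *Tgfbr1* was lower (27.8 and 11.1 CPM), the only gene called of 8, near the 11.8% of all genes that were lower. In CD301b-int and CD301b-hi cDC2s *Id1*, a direct target of SMAD signalling, was higher (4.16 and 21.2 CPM, and 8.14 and 21.9 CPM). It was the only 1 of 10 in each, near the 10% and 9.41% of all genes that were higher. In these classes 3 of 10 and 1 of 10 genes were lower, beside 9.76% and 7.96% of all genes, and *Runx3* was lower in both. The 1 of 10 lower in the CD301b-hi class lay near that share. In CD301b-lo cDC2s 0 of 9 were higher and 3 lower, beside 10.3% and 13.3% of all genes.

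The genes whose levels over the 10 groups were most like those of each member were taken from 3288 genes with at least 50 CPM in a group. *Itgav* was most like *Slfn5* (r = 0.98), *Actn1*, an actin cross-linker of adhesions, and *Phb2* (both 0.96). *Icam1* was most like *Pgap2* (0.97) and *Nup88* (0.96), and *Itgb1* like *Cnppd1* (0.98), *Gm8894* and *Cd274*, the gene of PD-L1 (both 0.97). *Itgb8* had no gene above 0.87 (*Myof*), the lowest of all 9 members compared. *Itgax*, *Itgb2* and *Itgam* were most like *Gm20900* (0.99), *Rps27a* (0.98) and *Rpl10* (0.98), and *Itgb7* was like *Rpl39* (0.94), *Satb1* (0.93) and *Ets1* (0.92), the latter pair being transcription factors abundant in lymphocytes. The 10 groups come from 2 libraries, so any gene that differed between the libraries in all classes scores high on this measure.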

How the data were processed

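CITE-seq libraries of sorted migratory DCs, 1 naive and 1 papain, were analysed from the deposited tables. Per the labels, the authors used 10x Chromium 3' v3 chemistry, and the submitters' processing notes name Cell Ranger 3.0.1, Partek and mm10. The deposited expression values are log2(CPM + 1) per cell for 18049 genes. For antibodies, the authors deposited natural log values relative to the 12 antibodies of the cell, beside a total antibody count per cell. The deposited barcodes are letters and were only copied. UMIs were recovered from the CPM steps: 100% of values up to 50 UMIs were whole within 0.02 UMI. They were summed per class, 3042 of 3471 naive and 7306 of 7596 papain cells having a class. A sum holds no unmapped column, and library sizes were the recovered totals.

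Levels have exact Poisson intervals, shares of cells Clopper-Pearson intervals and ratios exact conditional binomial intervals, at 95% and for counting error only. No count model or test was run, since each condition is 1 library. Cells were thinned to 8392 UMIs for shares at equal depth, and 378 of 3042 naive and 657 of 7306 papain cells, which were shallower, were left out of those shares. No doublet caller was run. The named genes were the 10 members, and genes of 4 function lists past 1.5-fold where the higher group had at least 10 CPM. Members and lists were chosen with earlier results of these data known. Windows of 250 bases were taken from a RefSeq table of GRCm38.p6, which lacked *Itgb2* and *Itgal*. Of the genes ranked by the measure of likeness, 1 is not reported here. Python 3.11.15, numpy 2.4.6, scipy 1.17.1, pandas 2.3.3 and matplotlib 3.10.9 were used, and the scripts were tested on simulated data. Alternatives were another pseudocount, other filters on low values and cells, scaling to the median gene, and the mean of cells' CPM. That mean was also taken over only the cells with at least 8392 UMIs, without thinning. Others left out the 5% deepest cells or cells with T or B cell UMIs, or were chosen after seeing the data.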

Additional observations from a re-analysis of the deposited data

Results flagged for a closer look

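*Itgb8* moved in opposite directions between the libraries, with a log2 ratio of papain over naive of 1.62 in LCs and -1.88 in cDC1s. The difference was not tested, since each condition was 1 library. Droplets without antibody data that held a T cell UMI were in no comparison, and they held 58.2 CPM of *Itgal* in naive and 66.3 CPM in papain, and 128 CPM of *Itgb7* in naive and 113 CPM in papain. Each of these values was above those of the DC classes, where *Itgal* reached 14.5 CPM and *Itgb7* 26.0 CPM.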

How the results depend on the processing

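No paired analysis was possible because each condition is 1 library, with no replicate number to share. Leaving out a library would leave nothing to compare, and no value here measures the spread between mice. Of 770 log2 ratios of the 10 genes under the alternatives tried, 636 stayed within their counting interval, 132 moved outside it, and 2 of called genes changed sign. Of 230 under those chosen after seeing the data, these were 101, 121 and 8. A change of sign was counted only where the gene had been called, so uncalled genes that changed sign are among the others. *Itgal* in naive LCs over cDC2s was 1 such case, at -1.53 with all cells and 0.68 without clusters 5 and 7. The counts of genes past 1.5-fold moved by under 1.5 times in 60 of 77 and 15 of 23 cases.

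The others were as follows. For papain over naive, LCs went from 5 genes to 3 with a pseudocount of 10. Their count was also 3 with the mean over cells of at least 8392 UMIs, which were not thinned. It was 3 as well without cells holding a T or B cell UMI, without the 5% deepest cells, and without cells with at least 5 *Lyz2* UMIs. The cDC1s went from 5 to 2 and CD301b-lo cDC2s from 5 to 3 without cells holding a T or B cell UMI, and the latter to 2 without naive clusters 5 and 7, where *Itgal* turned to 0.54 and *Itgb7* to 0.19. For naive LCs over cDC2s, 5 became 3 with a pseudocount of 10, without cluster 5, and without clusters 5 and 7, the last of which turned *Itgb2* to 0.028 and *Itgb7* to 0.61. For naive cDC1s over cDC2s, *Itgb2* turned to 0.21 without cluster 5 and to 0.44 without clusters 5 and 7, and *Itgal* to -1.52 and *Itgb7* to -0.15 without cells holding a T or B cell UMI. For naive CD301b-hi over CD301b-lo cDC2s, 4 became 2 with a pseudocount of 10, with the mean of cells' CPM, without cluster 5 and without cells with at least 5 *Lyz2* UMIs, 1 without clusters 5 and 7 (*Itgb2* 0.14, *Itgal* 0.17), and 0 without cells holding a T or B cell UMI. For papain LCs over cDC2s, 1 became 2 without the deepest cells. For papain cDC1s over cDC2s, 4 became 2 relative to the median ratio and with the mean over cells of at least 8392 UMIs. For papain CD301b-hi over CD301b-lo cDC2s, 1 became 0 with a pseudocount of 10. It became 2 with the mean of cells' CPM, over all cells or over those of at least 8392 UMIs. It also became 2 without the deepest cells and without cells with at least 5 *Lyz2* UMIs.

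On its relative scale the CD11c antibody was higher in papain in 4 classes by the median and in 2 by the mean, where CD301b-int cDC2s turned to -0.00511 and CD301b-hi cDC2s to -0.0543. CD301b-hi cDC2s also turned to -0.0443 over all cells with antibody values, and CD301b-lo cDC2s to 0.37 percentage points as a percent of antibody counts. By the median count per cell, CD11c was higher in papain only in LCs. The causes were not tested.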

Other observations

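Droplets with a T cell UMI and no antibody data (237 naive and 241 papain) held more *Itgal*, *Itgb7* and *Itgb2* than the DC classes. *Itgb2* stood at 48.2 CPM in naive and 67.9 CPM in papain, and *Itgae* at 31.4 and 19.8 CPM, each above all DC classes of the same library. For *Itgb2* in naive the next level was near, at 43.9 CPM in CD301b-lo cDC2s, and the counting intervals overlapped. No *Itgam* UMI was counted in these droplets of either library, which allows up to 1.59 and 1.97 CPM, and *Itgax* stood at 10.3 and 2.67 CPM. Unlike *Itgb2* of the DC classes, *Itgb2* of these droplets was not lower in papain.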
